A study of Mus musculus with 6 samples.

Results

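The Dlx homeobox family was examined through its 4 members with a row in the count table, Dlx1, Dlx2, Dlx5 and Dlx6, out of 18560 genes. All 4 were found by their symbols. RNA of single cells was measured in the olfactory bulb of C57BL/6NJ mice, which were 14 weeks old. Each of the 6 libraries was made from a pool of 3 mice, with 2 libraries per condition, and replicate 1 was a pool of males while replicate 2 was a pool of females. The conditions were control mice, mice in which a naris had been plugged for 6 weeks (naris occlusion, which deprives the bulb of odor input), and mice that had learned for 6 weeks to tell rewarded from unrewarded odors (olfactory training). The sample labels describe the control mice as not manipulated, and the results text mostly calls them naive but in one passage takes the open side of occluded mice as the control. These readings cannot be told apart here, and on the second one control and naris-occluded libraries would share animals. Trained mice were deprived of water for the task. The dissection also took in some olfactory epithelium.

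Dlx genes encode homeodomain transcription factors, proteins that bind DNA through a conserved helical domain. They lie in the mouse genome as linked pairs that are transcribed toward each other and share enhancers, and in the embryonic forebrain the Dlx1 and Dlx2 pair acts upstream of the Dlx5 and Dlx6 pair in progenitors of GABAergic interneurons. In the adult, neuroblasts from the subventricular zone migrate to the olfactory bulb, where they become granule cells (GCs) and periglomerular cells (PGCs), and Dlx genes are known as markers and regulators of this lineage.

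The linked pairs were placed on mm10, the build of the submitters' processing notes, through the RefSeq annotation of GRCm38.p6. Dlx1 occupies chr2:71528113-71533981 and Dlx2 chr2:71543408-71546754, with 9.43 kb between them. Dlx6 occupies chr6:6863334-6867970 and Dlx5 chr6:6877801-6882068, with 9.83 kb between them. Both pairs have an antisense partner. Dlx1as shares 3344 bases with Dlx1, and the whole of Dlx6, 4637 bases, lies within the long noncoding RNA Dlx6os1 (also known as Evf2). The strand setting of the counting was not given in the sources used, so reads of Dlx6 and Dlx6os1, or of Dlx1 and Dlx1as, cannot be assigned with certainty where they overlap.

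The part that makes these genes a family is the homeobox, the exonic coding sequence of the homeodomain. It is shown here for all members so that their likeness can be seen beside the separate counts, with capitals at each base that differs from Dlx1. The sequences run 5′ to 3′ on the coding strand, hold 180 bases each, and come from the GENCODE vM1 transcripts (NCBIM37 build).
Dlx1: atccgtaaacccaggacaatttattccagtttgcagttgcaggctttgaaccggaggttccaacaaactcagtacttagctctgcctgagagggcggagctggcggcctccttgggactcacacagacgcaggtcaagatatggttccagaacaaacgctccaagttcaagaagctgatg
Dlx2: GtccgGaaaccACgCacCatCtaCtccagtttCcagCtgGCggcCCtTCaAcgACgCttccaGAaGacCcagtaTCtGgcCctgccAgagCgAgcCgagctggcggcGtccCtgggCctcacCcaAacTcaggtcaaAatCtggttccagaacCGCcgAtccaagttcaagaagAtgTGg
Dlx5: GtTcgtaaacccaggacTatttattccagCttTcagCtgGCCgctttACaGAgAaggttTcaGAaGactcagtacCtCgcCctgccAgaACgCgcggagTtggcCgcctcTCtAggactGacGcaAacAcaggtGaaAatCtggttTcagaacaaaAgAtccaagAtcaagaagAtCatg
Dlx6: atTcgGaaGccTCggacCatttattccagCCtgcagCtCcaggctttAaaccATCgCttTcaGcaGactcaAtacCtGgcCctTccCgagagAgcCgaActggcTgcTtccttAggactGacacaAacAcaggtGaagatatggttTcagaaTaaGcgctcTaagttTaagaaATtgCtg
Dlx2 differed from Dlx1 at 47 of these bases, Dlx5 at 43 and Dlx6 at 42. In the translated homeodomain of 60 residues, Dlx1 and Dlx6 shared 58 residues and Dlx2 and Dlx5 shared 56, whereas the linked genes Dlx1 and Dlx2 shared 52 and Dlx5 and Dlx6 shared 51. The closest homeodomains therefore belonged to members of different linked pairs. Over the whole transcripts, the longest identical stretch between any pair of members was 23 bases (Dlx2 and Dlx6), and the other pairs shared at most 16 bases. RefSeq promoters (300 bases around the start, GRCm38.p6) matched 2 of the 4 members, Dlx1 and Dlx2, and also matched Dlx6os1. The homeodomain core motif TAATTA, which reads the same on both strands, was in neither the Dlx1 nor the Dlx2 window and was in both listed windows of Dlx6os1, while 5.29% of 32851 promoter windows hold it.

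A count is a unique molecular identifier (UMI), that is, 1 captured transcript molecule. Levels are given as CPM, the UMIs of a gene per 1000000 UMIs summed over the cells of a cluster in a library, as mean ± SD over 6 libraries of all conditions. UMIs come from the 3′ end of transcripts and are not scaled by transcript length, and capture can differ between genes, so a CPM is compared between clusters and not between members. Of 51426 cells with a deposited cluster, 22501 were in 16 neuronal clusters and 28925 in 22 nonneuronal clusters. The second annotation divided 21746 neurons into 18 clusters, of which the paper assigns 12 to adult-born lineages (16302 cells), called adult-born here. Of these, n04-Immature stands at the start of the paper's developmental order, followed by axis A with 8 clusters and axis B with 3. The assignment rests on expression, and the paper also describes n05-PGC-2 and n12-GC-6 as made earlier in life and little replaced. The clusters were made from these same counts, so differences in level between them are descriptions and were not tested.

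Libraries held 6705 to 10570 cells and 11841160 to 17065083 UMIs. A barcode sequence that also occurred in another library was carried by 2956 cells, in 1529 pairs, and 70 of those pairs had the same cluster of the whole bulb. The cell names of both trained libraries start with the other library's code, and the library column was used, whose pools matched the stated sex by Xist and Ddx3y. The name of n04-Immature was checked with immature markers. Dcx, a microtubule protein of migrating neuroblasts, had 907 ± 53.5 CPM there. Sox11 had 2085 ± 98.4 CPM and Igfbpl1 had 1544 ± 63.3 CPM, and each of these genes was above every other neuron cluster (n = 6). Omp of sensory neurons stood at 20.8 ± 7.51 CPM, but Gng13, also of sensory neurons, stood at 382.5 ± 113 CPM, against 18374.6 CPM in n01-OSNs. Of the astrocyte markers, Aqp4 stood at 14.1 ± 4.76 CPM, Gfap at 24.5 ± 6.57 CPM and Slc1a2 at 114 ± 12.8 CPM. Of the mitral and tufted cell markers, Cdhr1 stood at 15.0 ± 4.50 CPM and Slc17a7 at 20.1 ± 7.13 CPM. The part of free RNA in these marker levels was not tested.

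Dlx1 was highest in immature cells. In n04-Immature it had 605.5 and 734 CPM in the control libraries, 736 and 627 CPM in the naris-occluded libraries and 594 and 707 CPM in the trained libraries, a mean of 667 ± 65.8 CPM over 4423 UMIs. The lowest of these libraries lay above every library of the 17 other neuron clusters. Next came n02-PGC-1 with 454 ± 69.0 CPM, n08-PGC-3 with 426 ± 66.5 CPM and n03-GC-1 with 388 ± 36.0 CPM, whose ranges over libraries overlapped, so their order is not fixed. Every further neighbor in the order also overlapped, from n10-GC-4 (313 ± 113 CPM) and n11-GC-5 (281 ± 38.8 CPM) through the dopaminergic n05-PGC-2 (274 ± 62.9 CPM), n06-Transition (253 ± 40.8 CPM) and n07-GC-2 (202 ± 23.8 CPM) to n12-GC-6 (186 ± 41.3 CPM) and n09-GC-3 (134 ± 46.1 CPM). The remaining 7 clusters, which include the mitral and tufted cell clusters and sensory neurons, had means between 45.9 and 116 CPM. On the log2(CPM + 10) scale, Dlx1 in n07-GC-2 differed from n04-Immature by -1.68 ± 0.19 (mean ± SD) and was the lower in 6 of 6 libraries. Cells of n07-GC-2 had medians of 16.4 to 18.7% mitochondrial UMIs and 726 to 1019 UMIs per cell over libraries, against 7.23 to 9.91% and 1476 to 2080 UMIs in n04-Immature, and the part of RNA quality and depth in the differences of any member between these clusters was not tested.

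Dlx2 was also highest in immature cells. Its level in n04-Immature was 392 and 516 CPM in control, 466 and 462 CPM in naris-occluded and 341 and 499 CPM in trained libraries (446 ± 66.9 CPM, 2960 UMIs). Again no library of any other cluster reached the lowest of these. The next clusters were n08-PGC-3 with 213 ± 46.3 CPM, n03-GC-1 with 181 ± 26.5 CPM and n02-PGC-1 with 159 ± 16.5 CPM, which overlapped. In n03-GC-1 the log2 difference from n04-Immature was -1.25 ± 0.11 for Dlx2 and -0.77 ± 0.09 for Dlx1. In n07-GC-2 it was -2.81 ± 0.42 for Dlx2, at a level of 56.3 ± 16.4 CPM. In n09-GC-3 the order was the other way, with -1.71 ± 0.15 for Dlx2 and -2.29 ± 0.52 for Dlx1. Dlx2 made up 40.1% of the UMIs of the Dlx1 and Dlx2 pair in n04-Immature (range over libraries 36.5 to 42.4%), 32.1% in n03-GC-1 (28.5 to 35.5%), 26.2% in n02-PGC-1 (22.9 to 30.1%) and 21.8% in n07-GC-2 (16.3 to 29.6%). The ranges of n04-Immature and each of these others did not overlap. The share was 50% in n09-GC-3 (33.3 to 66.7%, 102 UMIs), and it was 38.4% in n12-GC-6 (23.1 to 46.8%), 34.6% in n08-PGC-3 (22.7 to 38.6%) and 34.6% in n10-GC-4 (16.7 to 45.95%), all of which overlapped n04-Immature.

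Dlx5 was highest in n03-GC-1 and n04-Immature. In n03-GC-1 it had 284 and 285 CPM in the control, 287 and 302 CPM in naris-occluded and 247 and 328 CPM in trained libraries (289 ± 26.4 CPM, 811 UMIs). In n04-Immature it had 220 and 268 CPM in control, 278 and 229.5 CPM in naris-occluded and 228 and 282 CPM in trained libraries (251 ± 27.9 CPM, 1662 UMIs). The ranges of these clusters overlapped, although n03-GC-1 was the higher in 6 of 6 libraries, by 0.20 ± 0.14 on the log2 scale. They were followed by n02-PGC-1 with 227 ± 39.3 CPM, n11-GC-5 with 184 ± 17.4 CPM and n12-GC-6 with 144 ± 18 CPM. Of the clusters high in Dlx1, n08-PGC-3 stood out by its low Dlx5, 53.0 ± 32.6 CPM from only 28 UMIs.

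Dlx6 had another order than the other members. It was highest in n02-PGC-1, with 141 and 201 CPM in control, 216 and 168 CPM in naris-occluded and 115 and 199 CPM in trained libraries (173 ± 39.4 CPM, 341 UMIs), and in n03-GC-1, with 187.5 and 141 CPM in control, 174 and 160 CPM in naris-occluded and 139 and 208 CPM in trained libraries (168 ± 27.0 CPM, 470 UMIs). These clusters could not be ordered, since each was the higher in 3 of 6 libraries, and both lay wholly above 15 of the 16 other clusters, with n09-GC-3 (84.7 ± 52.9 CPM from 32 UMIs) as the exception. In n04-Immature Dlx6 had only 49.6 and 53.8 CPM in control, 53.9 and 52.5 CPM in naris-occluded and 36.7 and 61.6 CPM in trained libraries (51.3 ± 8.20 CPM, 343 UMIs), the eighth rank of 18. The log2 difference of n02-PGC-1 from n04-Immature was 1.56 ± 0.18 and that of n03-GC-1 was 1.54 ± 0.18, positive in 6 of 6 libraries for both. The clusters n02-PGC-1 and n03-GC-1 were also those with the most Calb2, which encodes calretinin, a calcium-binding protein of granule and periglomerular cells, at 6489 ± 677 and 13129 ± 2397 CPM, whereas n11-GC-5 had 1137 ± 274 CPM and n04-Immature 181 ± 42.3 CPM.

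**Figure D1:**
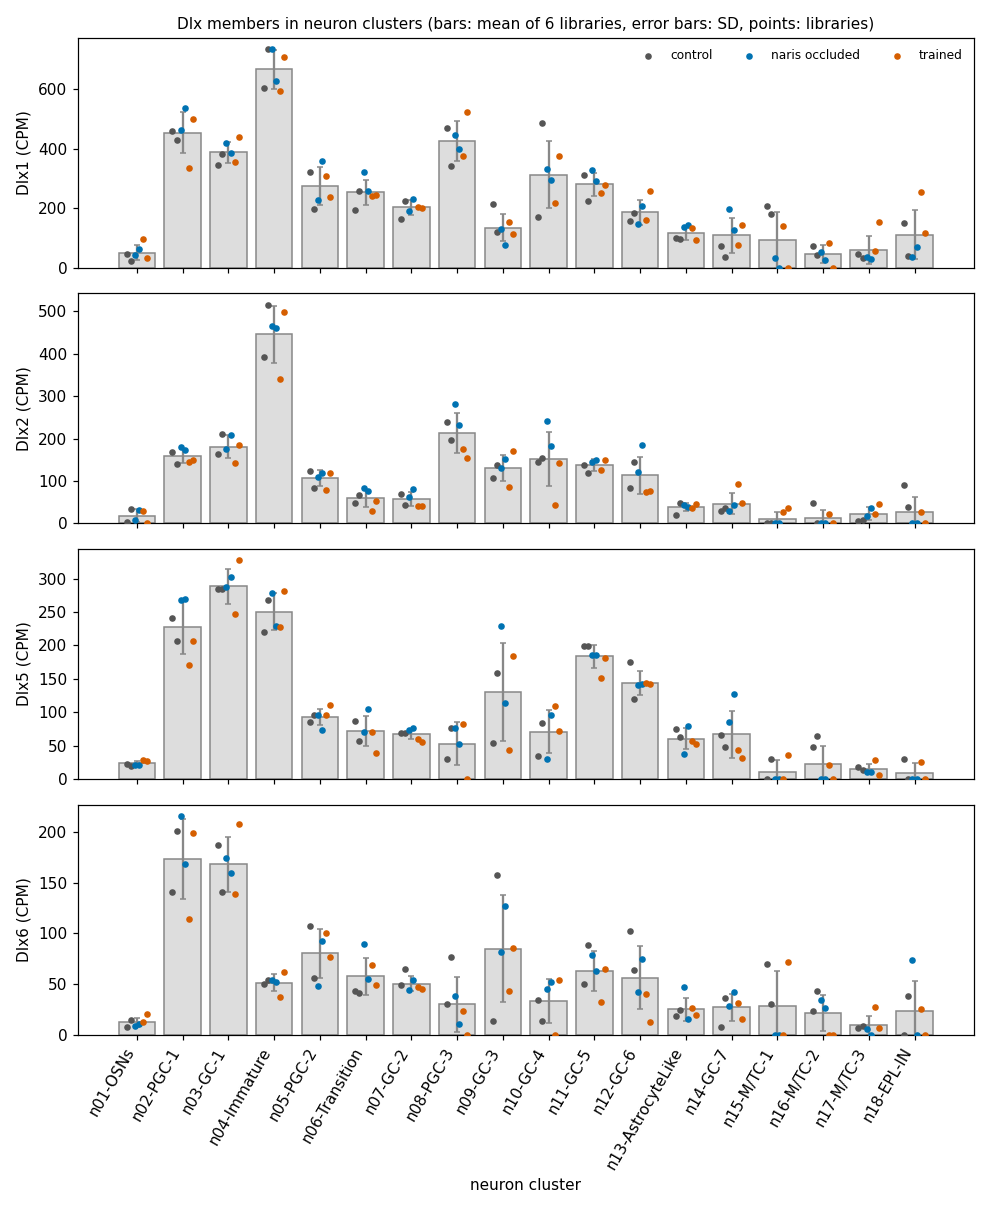
Levels of Dlx1, Dlx2, Dlx5 and Dlx6 (y axes, CPM) in the 18 neuron clusters (x axis). Bars are means of 6 libraries, error bars are SD and points are libraries colored by condition. Dlx1 (667 CPM) and Dlx2 (446 CPM) peak in n04-Immature, Dlx5 peaks in n03-GC-1 (289 CPM) and n04-Immature (251 CPM), and Dlx6 peaks in n02-PGC-1 (173 CPM) and n03-GC-1 (168 CPM) and is low in n04-Immature (51.3 CPM).

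The composition of the family within a cluster removes the total as a factor, since all members were counted in the same cells. In n04-Immature Dlx1 made up 47.1% of the 9388 Dlx UMIs, Dlx2 31.5%, Dlx5 17.7% and Dlx6 3.65%. In n03-GC-1 the shares of 2882 UMIs were 37.7%, 17.8%, 28.1% and 16.3%, and in n02-PGC-1 the shares of 2009 UMIs were 44.7%, 15.8%, 22.6% and 17.0%. The Dlx5 and Dlx6 pair together thus held 21.4% of the family in n04-Immature (20.5 to 22.2% over libraries), 39.5% in n02-PGC-1 (37.3 to 43.0%) and 44.5% in n03-GC-1 (41.9 to 48.0%). At the other end, the pair held 12.6% in n08-PGC-3 (exact 95% interval 9.29 to 16.5%, 350 UMIs) and 18.4% in n10-GC-4 (13.95 to 23.6%, 266 UMIs). Over libraries these shares ran from 0 to 22.2% in n08-PGC-3 and from 11.6 to 29.4% in n10-GC-4. Both ranges overlapped that of n04-Immature.

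Within the Dlx5 and Dlx6 pair, Dlx6 took 17.1% of 2005 UMIs in n04-Immature, with libraries between 13.9 and 18.6%. It took 36.7% of 1281 UMIs in n03-GC-1 (33.1 to 39.8%), 43.0% of 794 UMIs in n02-PGC-1 (36.9 to 49.3%) and 42.7% of 408 UMIs in n07-GC-2 of axis B (37.2 to 48.4%). None of these ranges overlapped that of n04-Immature. In n11-GC-5 it took 24.9% of 892 UMIs (17.7 to 30.8%), a range that overlapped n04-Immature. Overlap was also seen in n12-GC-6 (8.33 to 36.8%), n14-GC-7 (10 to 42.9%) and n10-GC-4 (0 to 60%), from 176, 40 and 49 UMIs. The same held for n08-PGC-3 (16.7 to 50%, 44 UMIs), where trained replicate 2 had no UMI of the pair. The range of n05-PGC-2 (33.3 to 56%) did not overlap that of n04-Immature. In n07-GC-2 the level of Dlx6 itself, 50.4 ± 7.63 CPM, was close to that in n04-Immature, with a log2 difference of -0.02 ± 0.26, while Dlx5 was lower by a log2 difference of -1.75 ± 0.24. Exact intervals here cover counting error only.

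**Figure D2:**
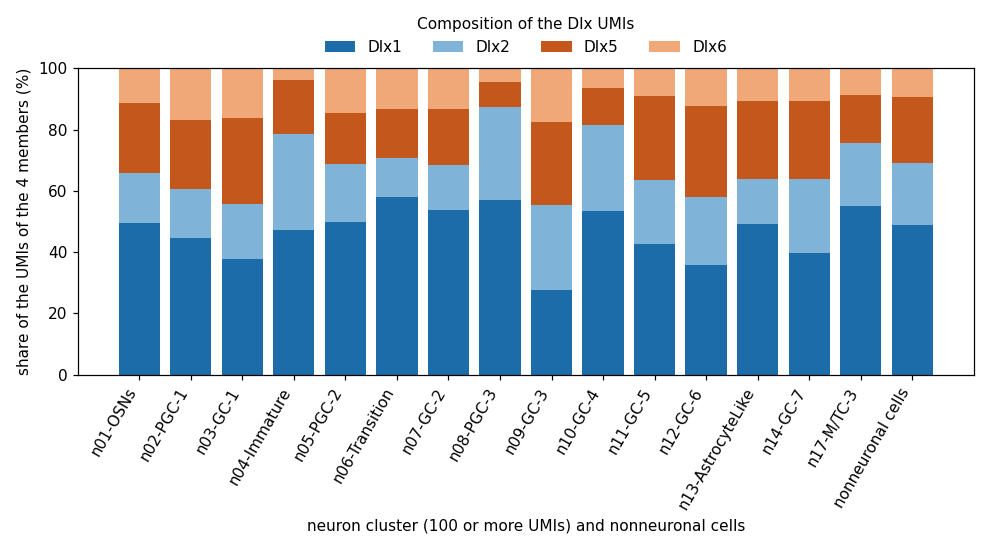
Share of each member in the UMIs of all 4 members (y axis, percent) in the neuron clusters with at least 100 such UMIs and in all nonneuronal cells (x axis), pooled over 6 libraries. Dlx2 is largest in n04-Immature (31.5%) and n08-PGC-3. Dlx6 is smallest in n04-Immature (3.65%), also small in n08-PGC-3 (4.57%) and n10-GC-4 (6.39%), and larger in n02-PGC-1 (17.0%) and n03-GC-1 (16.3%).

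Dlx6os1, the antisense partner of Dlx6, was highest in n04-Immature, unlike Dlx6. It stood at 556 ± 63.9 CPM in n04-Immature, 249 ± 39.1 CPM in n02-PGC-1 and 156 ± 43.1 CPM in n03-GC-1. Of the UMIs of both genes, Dlx6 held 8.49% in n04-Immature (range over libraries 5.95 to 9.41%), 40.4% in n02-PGC-1 (26.5 to 48.3%) and 53.3% in n03-GC-1 (43.5 to 59.2%), and these ranges did not overlap that of n04-Immature. Nor did those of n05-PGC-2 (39.1 to 69%), n14-GC-7 (11.1 to 33.3%) and n11-GC-5 (9.86 to 24%). Other clusters of axis A did overlap n04-Immature. They were n10-GC-4 at 11.3% (0 to 16.7%), n08-PGC-3 at 15.1% (0 to 25.9%) and n12-GC-6 at 19% (4.55 to 27.6%). On axis B the share was 17.5% in n06-Transition, 19.9% in n07-GC-2 and 56.1% in n09-GC-3, the last from 25 Dlx6os1 and 32 Dlx6 UMIs with libraries between 25 and 72.7%. Dlx1as was sparse, at 38.9 ± 5.77 CPM in n04-Immature and 84.8 ± 23.4 CPM in n08-PGC-3, where it came from 40 UMIs.

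Cells with at least 1 UMI were counted again after thinning every cell to 500 UMIs, since median depth ran from 656 UMIs per cell in n13-AstrocyteLike to 3533 in n12-GC-6. No annotated cell was shallower than this depth. In n04-Immature 25.6% of 3910 cells then had Dlx1 (exact 95% interval 24.2 to 27.0%), 17.4% had Dlx2 (16.3 to 18.7%), 11.2% had Dlx5 (10.3 to 12.3%) and 2.12% had Dlx6 (1.69 to 2.63%). Unthinned, at a median of 1668 UMIs, the shares were 58.8%, 47.4%, 32.2% and 8.11%. In Astro3, an astrocyte cluster that should lack these genes, the thinned shares were 2.64%, 1.07%, 1.69% and 0.562% and the unthinned shares 4.10%, 1.80%, 2.08% and 1.18% at a median of 708.5 UMIs. In n03-GC-1 12.5% of 1914 thinned cells had Dlx5 (11.04 to 14.1%) and 8.15% had Dlx6 (6.96 to 9.47%), and unthinned 32.6% and 20.7%, so that Dlx6 was found in more cells of n03-GC-1 than of n04-Immature by both counts. In n02-PGC-1 8.49% of thinned cells had Dlx6 (6.86 to 10.4%). The intervals for shares of cells pool the cells of 6 libraries, so they cover counting error only and not the spread between libraries.

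Any member was found in 46.1% of thinned n04-Immature cells (44.5 to 47.7%; 80.3% unthinned), in 37.9% in n03-GC-1 (70.4% unthinned) and in 37.7% in n02-PGC-1 (80.2% unthinned). The sensory neurons of n01-OSNs gave 5.83% (9.50% unthinned, median 808.5 UMIs). In thinned n04-Immature cells, Dlx1 and Dlx2 occurred together in 171 cells, where the product of their shares gives 175, and Dlx2 and Dlx5 in 95 cells, where the product gives 76.6. For Dlx5 and Dlx6 in n03-GC-1, 24 cells had both and the product gives 19.5. At this depth most cells that had a member showed only 1, and 9.21% of n04-Immature cells had UMIs of 2 or more members (48.1% unthinned).

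In the whole bulb, the members were higher in most neuronal clusters than in any nonneuronal one. Dlx1 reached 698 ± 81.6 CPM in N1, of whose neurons 99.4% were in n04-Immature, and Dlx6 reached 169 ± 25.9 CPM in N13, of whose neurons 63.5% were in n03-GC-1. For Dlx1, 15 of 16 neuronal clusters lay above the highest of 22 nonneuronal clusters (Astro3, 52.6 ± 5.85 CPM), and the exception was N5, of whose neurons 84.2% were in n01-OSNs. For Dlx2, 14 of 16 lay above the highest nonneuronal cluster (macrophages, 27.7 ± 18 CPM), without N5 and N14. For Dlx5 and Dlx6, 13 of 16 lay above Astro3 (25.1 ± 11.5 and 13.5 ± 10.96 CPM), without N5, N14 and N15. The main neuron cluster of N14 and N15 was n17-M/TC-3. All nonneuronal clusters were at low levels of every member, with medians over clusters of 22.8 CPM for Dlx1, 9.28 CPM for Dlx2, 10.3 CPM for Dlx5 and 4.42 CPM for Dlx6.

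Within these low levels, Dlx1 made up 48.8% of the 2588 Dlx UMIs of nonneuronal cells, Dlx2 20.4%, Dlx5 21.6% and Dlx6 9.20%, and in all adult-born neurons the shares were 45.7%, 24.4%, 20.9% and 8.996%. In the 4 nonneuronal clusters with a median under 1000 UMIs per cell, Dlx1 lay between 33.6 and 52.6 CPM, and in the 18 deeper ones between 11.7 and 37.8 CPM. Dlx5 lay between 17.3 and 25.1 CPM in the shallow ones and between 5.62 and 17.1 CPM in the deeper ones, without overlap. The ranges overlapped for Dlx2 (12.55 to 23.8 and 3.57 to 27.7 CPM) and Dlx6 (5.29 to 13.5 and 1.39 to 11.2 CPM). In n13-AstrocyteLike, the neuron cluster of lowest depth, Dlx1 had 116 ± 22.9 CPM and Dlx6 25.2 ± 11.3 CPM. The part of free RNA in these levels was not tested. Dlx5 in n01-OSNs (23.2 ± 3.90 CPM) and in the mitral and tufted cell clusters (10.97 to 22.1 CPM) had means below that of Astro3, so no expression is read from them.

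**Figure D3:**
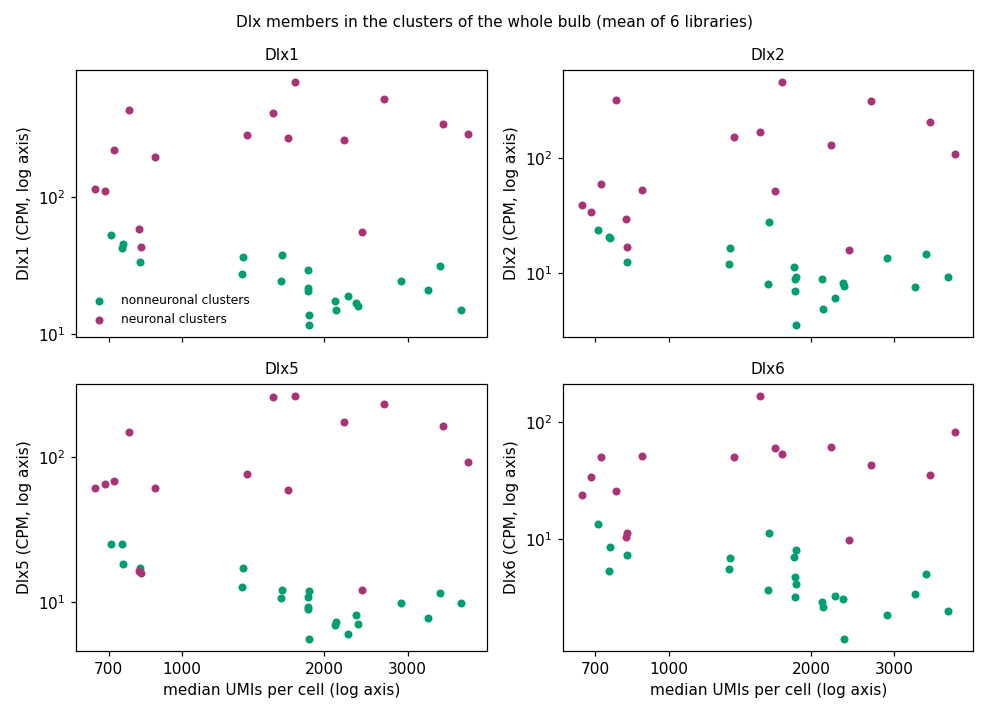
Mean level of each member over 6 libraries (y axes, CPM, log axis) against the median UMIs per cell (x axes, log axis) for the 38 clusters of the whole bulb, neuronal in purple and nonneuronal in green. Dlx1 in nonneuronal clusters stays at or under 52.6 CPM, with overlapping ranges in shallow (33.6 to 52.6 CPM) and deeper clusters (11.7 to 37.8 CPM), while 15 of 16 neuronal clusters lie above it. For Dlx5 the ranges of shallow (17.3 to 25.1 CPM) and deeper nonneuronal clusters (5.62 to 17.1 CPM) do not overlap.

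The patterns of Dlx1 and Dlx2 over clusters were the most alike among members. Over the 18 neuron clusters, Pearson's r of log2(mean CPM + 10) was 0.92 for Dlx1 and Dlx2, 0.83 for Dlx5 and Dlx6, 0.86 for Dlx2 and Dlx5, 0.78 for Dlx1 and Dlx5, 0.71 for Dlx1 and Dlx6 and 0.66 for Dlx2 and Dlx6. These are descriptions over clusters that share libraries and differ in depth. Among 7017 other genes with at least 50 CPM in a cluster, the closest to Dlx1 were Dlx6os1 (r = 0.90), Rbbp4 (0.88), Mpped2 (0.86), Msra (0.86) and Mcm7 (0.86). Among the closest to Dlx2 were the linker histone gene H1fx (0.93), Prmt1 (0.90), Ptms (0.90) and Akt1s1 (0.90). The closest to Dlx5 were H1fx (0.91), Rnf10 (0.89), the zinc finger factor Sp8 of calretinin interneurons (0.89), Amer2 (0.87) and Smu1 (0.87). The closest to Dlx6 were the zinc finger homeobox gene Zeb2 (0.88), Gadd45g (0.86), Zfp608 (0.86), Ssbp2 (0.85) and Bmp1 (0.84).

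The other genes of the interneuron program fell into several patterns. Of the upstream factors, Gsx2 had 1.39 ± 1.15 CPM in n04-Immature, from 9 UMIs. The TALE homeobox genes Meis2 and Pbx3 were highest in n04-Immature of the 3 clusters compared here, as was Dlx2. Meis2 had 2221 ± 168 CPM in n04-Immature, 977 ± 95.7 CPM for n03-GC-1 and 722 ± 33.5 CPM for n02-PGC-1. Pbx3 had 462 ± 65.4, 156 ± 31.0 and 38.4 ± 8.79 CPM in the same clusters in turn. Sp8 (695 ± 68.2, 653 ± 90.4 and 829 ± 80.4 CPM), Sp9 (458 ± 60.4, 443 ± 65.1 and 336 ± 35.9 CPM) and Etv1 (447 ± 23.5, 340 ± 51.7 and 448 ± 45.7 CPM) differed less between them, as did Dlx5. Zeb2 went the way of Dlx6, with 576 ± 44.7 CPM in n04-Immature, 769 ± 56.8 CPM for n03-GC-1 and 850 ± 77.5 CPM for n02-PGC-1. The GABA genes divided, with Gad1 at 290 ± 35.3 CPM in n04-Immature, 580 ± 77.1 CPM for n03-GC-1 and 631 ± 81.6 CPM for n02-PGC-1, Slc32a1 (the vesicular GABA transporter) at 105 ± 10.1, 232 ± 11.6 and 254 ± 18.7 CPM, and Gad2 highest in n04-Immature of these, at 307 ± 39.6, 116 ± 19.0 and 163 ± 35.8 CPM. Nrp2, a guidance receptor that Dlx factors are known to repress in migrating interneurons, had 43.2 ± 8.03 CPM in n04-Immature and at most 2.78 CPM in n02-PGC-1 and n03-GC-1, and Olig2 had 4.24 ± 1.91 CPM in n04-Immature.

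Dividing cells were few in n04-Immature, and the exact test used could not pass the threshold with 5 pairs of values, so the differences are given as values. With at least 2 UMIs of 10 division genes, 41 of the 3910 n04-Immature cells were called dividing, and naris-occluded replicate 1 had only 4 and gave no value. In the other 5 libraries, 37 dividing cells held 123 Dlx1, 95 Dlx2, 32 Dlx5 and 11 Dlx6 UMIs. The log2 difference of dividing cells from those with none of these UMIs was 0.31 ± 0.42 for Dlx1, higher in 4 of 5 libraries, and 0.45 ± 0.47 for Dlx2, higher in 4 of 5. It was -0.34 ± 0.80 for Dlx5, higher in 2 of 5, and 0.26 ± 1.05 for Dlx6, higher in 3 of 5. Exact two-sided sign-flip permutation tests gave p-values adjusted over the members of 0.375 for Dlx1 and Dlx2, 0.583 for Dlx5 and 0.75 for Dlx6, and the smallest p that 5 pairs allow is 0.0625.

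Odor experience was then compared within each adult-born cluster. No member passed the threshold in any cluster after naris occlusion or after training, by edgeR's quasi-likelihood test on summed counts of 2 libraries against 2 (adjusted p under 0.05 over all genes of a cluster). For both comparisons, 39 pairs of a member and a cluster had enough counts to be tested of 48 possible, with Dlx1 and Dlx2 tested in 11 clusters, Dlx5 in 9 and Dlx6 in 8. In naris occlusion, 0 of 39 were called, against 0.0593% of all 57303 pairs of gene and cluster tested, and 0 of 39 had an unadjusted p under 0.05, against 4.76% of all. In training, 0 of 39 were called, against 0.0489% of all, and 1 of 39 had an unadjusted p under 0.05, against 5.48% of all. DESeq2 called 0 of 39 in both comparisons. With 2 libraries a group an exact permutation test cannot go below 0.333, and both comparisons use the same control libraries.

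In n04-Immature, where counts were largest, the fold changes were small beside their errors. Dlx1 changed by a log2 value of 0.00 (SE 0.13) after naris occlusion and -0.04 (SE 0.13) after training. Dlx2 changed by 0.02 (SE 0.16) and -0.11 (SE 0.16), Dlx5 by 0.04 (SE 0.14) and 0.07 (SE 0.14), and Dlx6 by 0.03 (SE 0.23) and -0.06 (SE 0.23), with edgeR adjusted p of 0.984 or more. For every member in this cluster, the range of the control libraries overlapped that of both manipulated groups. In n03-GC-1 log2 values lay between -0.04 and 0.12 after naris occlusion and between -0.24 and 0.08 after training. In n02-PGC-1, Dlx5 had 240 and 207 CPM in control libraries, 267.5 and 270 CPM after naris occlusion and 170 and 206 CPM after training. Control replicate 2 (206.9 CPM) and trained replicate 2 (206.2 CPM) were nearly equal. Its edgeR log2 values were 0.24 (SE 0.18, adjusted p = 0.949) and -0.29 (SE 0.19, adjusted p = 0.978).

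Larger values came from clusters with few counts. Dlx6 in n12-GC-6, with 52 UMIs in all, had 102.5 and 63.9 CPM in control and 40.3 and 12.9 CPM in trained libraries, a log2 value of -1.46 (SE 0.63). Its unadjusted p by the edgeR quasi-likelihood test was 0.0228 and its adjusted p was 0.745. Dlx1 in n14-GC-7 had a log2 value of 1.51 (SE 0.80, adjusted p = 0.948) after naris occlusion, where both occluded libraries together had fewer than 100 cells of that cluster (38 and 36). Cells of that cluster had a median of 28.2 to 31.5% mitochondrial UMIs per library, and the part of RNA quality in its values was not tested. Over the tested clusters the median log2 value after naris occlusion was 0.12 for Dlx1, 0.17 for Dlx2, 0.04 for Dlx5 and -0.01 for Dlx6, beside 0.00 over all genes. After training it was 0.04 for Dlx1, -0.24 for Dlx2, -0.12 for Dlx5 and -0.11 for Dlx6, beside 0.00 over all genes. The values were below 0 in 7 of 39 tests after naris occlusion (17.9%, against 49.8% of all pairs) and in 25 of 39 after training (64.1%, against 49.9%). After naris occlusion Dlx1 and Dlx2 were above 0 in 11 of 11 clusters each, Dlx5 in 6 of 9 and Dlx6 in 4 of 8, and after training Dlx2 was below 0 in 9 of 11, Dlx5 in 6 of 9, Dlx6 in 6 of 8 and Dlx1 in 4 of 11. The values counted after naris occlusion include 0.003 for Dlx1 and 0.015 for Dlx2 in n04-Immature, and both changed sign in cells with at least 1000 UMIs. How often any gene has the same sign in all its clusters was not counted. The tests of a member share its libraries across clusters, and none of these values passed the threshold.

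One library carried part of the spread. Over all adult-born neurons, trained replicate 1 had the lowest pooled level of the 6 libraries for every member, with Dlx1 at 333 CPM against 359 to 435.5 CPM in the others, Dlx2 at 149.5 against 187 to 258 CPM, Dlx5 at 146 against 172 to 202 CPM and Dlx6 at 58.7 against 75.4 to 87.8 CPM. This did not hold in every population. In axis B, trained replicate 1 had 215 CPM of Dlx1 and 54.6 CPM of Dlx6, where control replicate 1 had 175.5 and 45.2 CPM, and in n04-Immature Dlx5 was lowest in control replicate 1. The pooled level also depends on how many cells of each cluster a library held, such as 429 to 939 of n04-Immature. In nonneuronal cells the same library was the highest for Dlx1 (34.5 against 18.5 to 23.2 CPM), Dlx2 (12.1 against 8.10 to 10.5 CPM) and Dlx5 (12.8 against 8.37 to 11.6 CPM) but not for Dlx6 (4.22 CPM). It also had the lowest median depth, 1028 UMIs per cell against 1344.5 to 1723.5 in the others. The part of depth or free RNA in these levels was not tested. Without trained replicate 1, no member was called either, and the log2 value of Dlx2 in n04-Immature after training was 0.13 in place of -0.11.

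**Figure D4:**
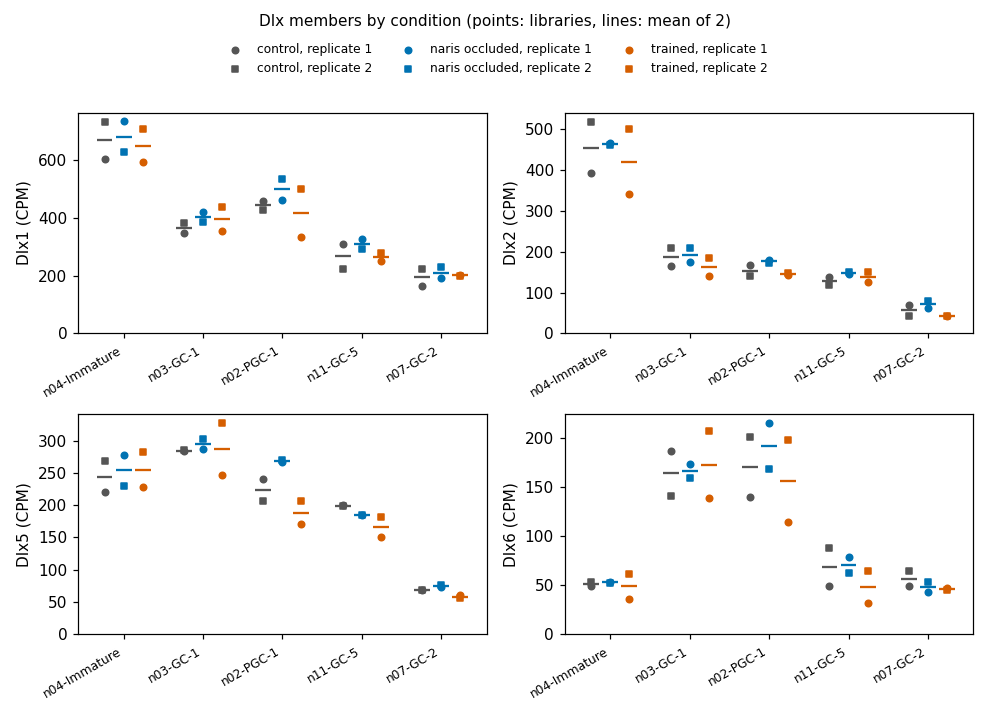
Levels of each member (y axes, CPM) in 5 adult-born clusters (x axes) by condition, with circles for replicate 1, squares for replicate 2 and a line at the mean of 2. In n04-Immature the control libraries of Dlx1 (605.5 and 734 CPM) span most of the range of the manipulated ones, and trained replicate 1 is low in several clusters.

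Whether the response of a member differed between immature cells and the axes was tested in 1 edgeR fit with the library as a block. Counts were summed over the clusters of each axis, whose cell numbers differed between libraries, such as 139 to 587 of n03-GC-1. The part of this cluster composition in the axis responses was not tested. None of the 4 members passed for naris occlusion, where 0.0623% of 11229 genes did, or for training, where 0.0178% did. No member had an unadjusted p under 0.05, against 520 of the 11229 genes for naris occlusion and 546 for training, too few members to tell from that share. The lowest p was 0.212, for Dlx5 after training, with the response in axis A lower than in n04-Immature by a log2 difference of -0.25 and that in axis B by -0.33 (edgeR adjusted p = 1).

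The wider list gave no call either. For 17 genes of the Dlx pathway and interneuron program, 134 pairs of gene and cluster were tested, and edgeR called 0 after naris occlusion and 0 after training, with 7 (5.22%) and 5 (3.73%) at an unadjusted p under 0.05, against 4.76% and 5.48% of all pairs tested. The median log2 values were -0.03 and 0.02. The lowest adjusted p was 0.689 after naris occlusion, for Slc32a1 in n12-GC-6 (log2 value 0.62, SE 0.22), and 0.595 after training, for Sp9 in n07-GC-2 (0.67, SE 0.25).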

How the data were processed

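Per the labels and the study's methods, the authors dissociated bulb tissue, captured cells in droplets (10X Chromium, 3′ chemistry) and counted UMIs per gene with Cell Ranger 2.0.0 on mm10 (submitters' processing notes). They deposited raw counts without normalization, and an annotation with the fraction of mitochondrial UMIs, the library and the cluster of each cell. The authors filtered cells on genes detected, clustered them in Seurat 2.2.1 and removed doublets, and no further cells were removed here. Counts were summed per library and cluster and scaled to CPM. Condition tests used edgeR 4.0.16 in R 4.3.3 (TMM, filterByExpr, quasi-likelihood, Benjamini-Hochberg at 0.05, all 6 libraries, 3 residual degrees of freedom) and were tested on simulated data. DESeq2 1.42.0, other scaling, no filter, a replicate block, cells with at least 1000 UMIs and leaving out each library were alternatives. Each library is a pool of mice, and p-values measure the spread between libraries. Whether control and naris-occluded pools share animals cannot be told from the sources used here. Log2 differences between clusters used a pseudocount of 10 CPM. The members were given, and the named genes were the members, a list of 17 genes, and for each member the 5 genes of highest r. Some genes named by this rule are not reported here. Members and lists were chosen with earlier results of these data known. Homeoboxes were translated from the longest coding transcript of each member and placed by a conserved motif. Intervals are exact (Clopper-Pearson).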

Additional observations from a re-analysis of the deposited data

Results flagged for a closer look

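Signal of the members was present in barcodes that the comparisons did not use. The 1123 barcodes with no deposited cluster held Dlx1 at 141.7 CPM, Dlx2 at 58.95 CPM, Dlx5 at 47.03 CPM and Dlx6 at 25.83 CPM, where a count of 0 allows up to 0.994 CPM, and the values were 428, 178, 142 and 78 UMIs at a median depth of 2327 UMIs. The 755 cells of the neuronal clusters that the neuron annotation leaves out held Dlx1 at 269.6 CPM, Dlx2 at 67.4 CPM, Dlx5 at 63.68 CPM and Dlx6 at 57.06 CPM, where a count of 0 allows up to 1.24 CPM. No test of a difference between groups flagged a member, and the groups of 2 libraries are too small for a check of outlying samples.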

How the results depend on the processing

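No call changed. Under each of 11 alternatives (other size factors, no filter, DESeq2, a replicate block, cells with at least 1000 UMIs and 6 left-out libraries) 0 members were called after naris occlusion and 0 after training. The levels in n02-PGC-1, n03-GC-1 and n04-Immature moved by less than 1 SD under each of 9 alternatives (control libraries alone, cells with at least 1000 UMIs, the mean over single cells and 6 left-out libraries). The replicate number, which is also the stated sex of the pool, was not a block in the reported fits. The difference of replicate 1 from replicate 2 correlated across genes between groups by 0.137 to 0.187 in n04-Immature, 0.066 to 0.149 in n03-GC-1 and 0.057 to 0.123 in n02-PGC-1, so a shared factor is possible, and with the replicate block 0 members were called in both comparisons. Single log2 values were recomputed for the 4 members in n02-PGC-1, n03-GC-1 and n04-Immature only. Their signs were not stable, and 34 of 264 were opposite to those reported. With cells of at least 1000 UMIs, where 11 of 12 clusters could be fitted, the values after naris occlusion were -0.034 for Dlx1 and -0.020 for Dlx2 in n04-Immature and -0.013 for Dlx5 in n03-GC-1, and DESeq2 gave 0.009 for Dlx6 in n03-GC-1 after training. Leaving out each library in turn gave these ranges after naris occlusion. In n04-Immature they were -0.142 to 0.154 for Dlx1, -0.187 to 0.228 for Dlx2, -0.114 to 0.186 for Dlx5 and -0.050 to 0.084 for Dlx6. In n03-GC-1 they were -0.147 to 0.213 for Dlx2, -0.035 to 0.086 for Dlx5 and -0.189 to 0.211 for Dlx6, and in n02-PGC-1 -0.060 to 0.450 for Dlx6. After training they were -0.189 to 0.107 for Dlx1, -0.406 to 0.128 for Dlx2, -0.086 to 0.216 for Dlx5 and -0.482 to 0.247 for Dlx6 in n04-Immature. In n03-GC-1 they were -0.043 to 0.227 for Dlx1, -0.216 to 0.157 for Dlx5 and -0.284 to 0.261 for Dlx6, and in n02-PGC-1 -0.427 to 0.122 for Dlx1, -0.224 to 0.041 for Dlx2 and -0.563 to 0.198 for Dlx6. The other ranges did not cross 0. After naris occlusion they were 0.025 to 0.262 for Dlx1, 0.059 to 0.323 for Dlx2 and 0.141 to 0.364 for Dlx5 in n02-PGC-1 and 0.047 to 0.199 for Dlx1 in n03-GC-1, and after training -0.420 to -0.171 for Dlx5 in n02-PGC-1 and -0.443 to -0.041 for Dlx2 in n03-GC-1. The cause was not tested. A left-out library leaves its arm with 1 sample, which is assumed to vary like the other groups. Dlx6 had few UMIs, with 343 in n04-Immature, and the part of this in its values was not tested.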
